A study of Mus musculus with 6 samples.

Results

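The BCL2 family decides whether a cell under stress keeps its mitochondria intact or dies by apoptosis, and 10 of its genes were followed here among the 54331 genes measured in mouse embryonic fibroblasts (MEFs) on their way to induced pluripotent stem cells. The members were taken by symbol as 3 pro-survival genes (*Bcl2*, *Bcl2l1* and *Mcl1*), 2 effector genes (*Bax* and *Bak1*) and 5 BH3-only genes (*Bcl2l11*, *Bbc3*, *Pmaip1*, *Bad* and *Bid*), and all 10 were found and tested. RNA from 3 OSKA + 4OHT wells was compared with RNA from 3 OSKA − 4OHT wells at 10 days postinfection (dpi). Cells of both groups came from mixed male E13.5 embryos that carried an Oct4-EGFP transgene on a mixed C57BL/6, DBA/2 and ICR background, and both had been transduced with retroviruses for Oct4, Sox2 and Klf4 (OSK) and for AKT-MER, a myristoylated AKT joined to a modified estrogen receptor. The ligand 4-hydroxytamoxifen (4OHT), which activates AKT-MER, was given to the first group and a mock treatment with vehicle to the second. The wells were split from infected cells after transduction, so the p-values measure the spread between wells. RNA from cells without AKT-MER was not analysed here, so activation of AKT and other effects of 4OHT cannot be told apart.

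Pro-survival BCL2 proteins bind and hold back the effectors BAX and BAK, which otherwise open pores in the outer mitochondrial membrane and release cytochrome c. BH3-only proteins carry stress signals to this switch, either by occupying the groove of the pro-survival proteins or by activating the effectors. AKT is known as a survival kinase that acts on this family largely after translation: it phosphorylates BAD, which is then held by 14-3-3 proteins, and it keeps FOXO transcription factors, which can induce *Bcl2l11* and *Bbc3*, out of the nucleus.

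Levels are given in TPM, a share of all transcripts that is corrected for their length and adds up to 1000000 in each library, so genes can be set side by side. It does not keep the sequencing depth, and no counting interval can be given. Between 15814 and 18230 genes were above 0 per library, and wells of the same group correlated by 0.809 to 0.864 on log2(TPM + 0.5) over genes, which are no replicates of each other. Differences were tested with limma-trend on that scale over the 15382 genes whose mean reached 1 TPM, and "called" stands for an adjusted p-value (Benjamini-Hochberg) under 0.05. Of all genes tested, 5.49% were called, 3.52% as higher and 1.97% as lower in the OSKA + 4OHT group, and 21.3% had an unadjusted p-value under 0.05. In 28.2% of the genes the wells of one group all lay on 1 side of the other group, with 18.1% of the genes higher and 10% lower in the OSKA + 4OHT group. The median log2 fold change of all genes was 0.14, and once libraries were rescaled by trimmed means (TMM) it was 0.013, with 452 genes called higher and 501 lower in place of 542 and 303.

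Of the 10 members, 1 was called: *Bak1* rose. Its opponent *Bcl2l1* was lower in every OSKA + 4OHT well but did not pass the correction, and the remaining 8 members were not called either. The groups did not overlap for 3 of the 10 members, *Bak1*, *Bcl2l1* and *Bcl2*, a share near the 28.2% of all genes tested. The median log2 fold change of the 10 members was 0.081, beside 0.14 for all genes tested, and the called share of 1 in 10 is to be read against the 5.49% given above.

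**Figure D1:**
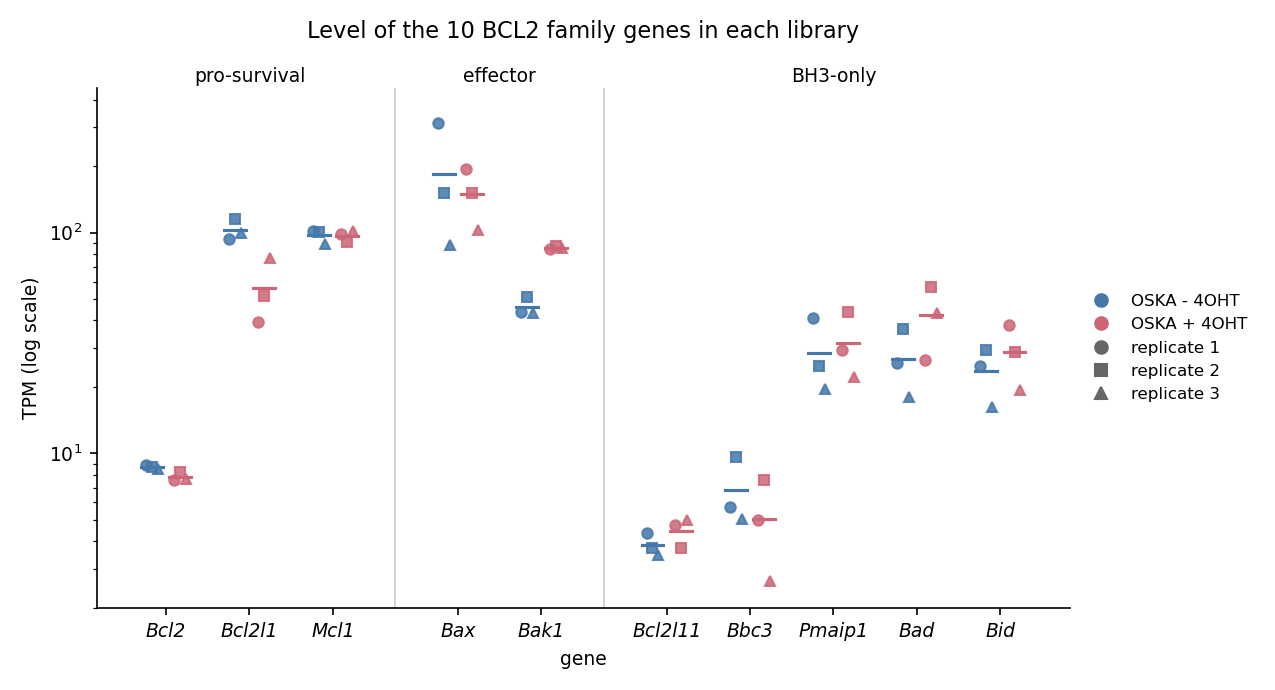
TPM (log axis) of the 10 members in each library, by role. Colours mark the groups, shapes the replicate numbers and short lines the group means (n = 3). The OSKA + 4OHT wells lie above all OSKA − 4OHT wells for *Bak1* and below them for *Bcl2l1* and, by a small margin, for *Bcl2*, and *Bax* has the widest spread within a group.

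Upstream sequences are shown for the pair of members with the largest non-overlapping differences and for the BH3-only genes whose upstream sequence held a forkhead motif, the class of site that FOXO factors bind. The sequences are those of RefSeq on GRCm38.p6 and cover the 250 bases before an annotated start site, 5′ to 3′ on the strand of the gene. In the table used, 9 of the 10 members were matched, all but *Pmaip1*, with 15 start sites in all. Capitals mark the forkhead motif GTAAACA or its complement.

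Bak1, chr17:27028628-27028877, minus strand: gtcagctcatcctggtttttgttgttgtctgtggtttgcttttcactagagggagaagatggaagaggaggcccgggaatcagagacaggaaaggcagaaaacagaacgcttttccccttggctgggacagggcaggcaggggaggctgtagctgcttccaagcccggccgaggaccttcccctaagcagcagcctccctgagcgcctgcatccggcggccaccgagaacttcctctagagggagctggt
Bcl2l1, most upstream of 3 start sites, chr2:152831729-152831978, minus strand: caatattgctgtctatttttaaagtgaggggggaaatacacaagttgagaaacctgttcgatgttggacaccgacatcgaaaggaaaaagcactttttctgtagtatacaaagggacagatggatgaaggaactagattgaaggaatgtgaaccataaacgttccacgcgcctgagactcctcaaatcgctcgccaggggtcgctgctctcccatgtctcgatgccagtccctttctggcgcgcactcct
Bcl2l11, first of 2 start sites, chr2:128125788-128126037, plus strand: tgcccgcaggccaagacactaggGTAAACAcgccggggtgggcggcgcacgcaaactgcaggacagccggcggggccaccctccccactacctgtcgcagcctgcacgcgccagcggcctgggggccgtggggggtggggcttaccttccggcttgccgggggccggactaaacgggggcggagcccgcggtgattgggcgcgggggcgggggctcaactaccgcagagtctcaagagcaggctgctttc
Bbc3, second of 3 start sites, chr7:16310011-16310260, plus strand: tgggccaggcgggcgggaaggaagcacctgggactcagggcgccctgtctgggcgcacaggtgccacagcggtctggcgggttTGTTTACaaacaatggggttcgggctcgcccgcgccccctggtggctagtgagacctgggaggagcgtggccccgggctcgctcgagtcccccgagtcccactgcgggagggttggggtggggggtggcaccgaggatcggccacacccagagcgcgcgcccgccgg

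The letters of 5 motifs were searched on both strands of these windows. The forkhead motif was found before 1 start site each of *Bcl2l11* and *Bbc3*, 227 and 167 bases before the start, and in 3.17% of all 32851 windows. The E-box CACGTG, which MYC and MAX can bind, was found before *Bax*, 9 bases before its start, and before another start site of *Bbc3*, and in 6.02% of all windows. Neither the interferon-stimulated response element, in the form GAAANNGAAA (2.98% of all windows), nor the STAT motif TTCNNNGAA (7.02%) was found before any of the 9 members searched. The GC box GGGCGG, a site of SP1, was found in 10 of the 15 member windows, which belong to 7 of the 9 members, and in 32.7% of all windows. It was not found before *Bak1* or *Bcl2l1*. The member windows held 47.6% to 81.6% G and C, against a median of 52.4% over all windows, and a motif of G and C alone depends on this share. Windows of *Bbc3* overlap in part, and an excess of the GC box was not tested. The windows printed for *Bak1* and *Bcl2l1* held 8 and 12 CG dinucleotides, against 24 for *Bcl2l11* and a median of 6 over all windows. A match of letters is a description of the sequence, and binding was not measured in these data.

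*Bcl2l1* encodes BCL-XL, a pro-survival protein of the outer mitochondrial membrane (chromosome 2 of GRCm38, 152780668 to 152831728). It had 93.1, 115 and 99.8 TPM in the OSKA − 4OHT wells (replicates 1 to 3) and 39.6, 51.7 and 76.4 TPM in the OSKA + 4OHT wells. All OSKA + 4OHT wells were thus below all OSKA − 4OHT wells, with replicate 3 the nearest to them. The mean was 103 ± 11.5 TPM without and 55.9 ± 18.8 TPM with 4OHT (SD, n = 3 each), so that it was 1.84 times as high without 4OHT. The log2 fold change was -0.92 (standard error 0.26, 95% interval -1.53 to -0.30), with an adjusted p of 0.0993 in limma-trend (0.0101 before adjustment). The interval lies below 0 while the correction over all genes was not passed. Without OSKA + 4OHT replicate 3 the log2 fold change was -1.17 and the adjusted p 0.0506, and over all 16 alternatives the adjusted p was from 0.0506 to 0.269.

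*Mcl1* encodes a short-lived pro-survival protein that is known to be needed in early embryos and stem cells (chromosome 3, 95658788 to 95663176). It had 102, 101 and 89.1 TPM without and 98.4, 90.5 and 101 TPM with 4OHT. The wells of both groups were interleaved. Its log2 fold change was -0.0041 (standard error 0.13, 95% interval -0.31 to 0.30, adjusted p = 0.992 from limma-trend). Once libraries were rescaled (TMM) it was -0.15 (95% interval -0.48 to 0.18).

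*Bcl2*, the founding member of the family (chromosome 1, 106538178 to 106714274), was the least abundant pro-survival gene. It had 8.83, 8.65 and 8.46 TPM without and 7.57, 8.26 and 7.62 TPM with 4OHT, and its wells differed by at most 1.09 times within a group, the smallest spread among the members in the OSKA − 4OHT group. All OSKA + 4OHT wells were below all OSKA − 4OHT wells by a small margin, with a log2 fold change of -0.14 (standard error 0.19, 95% interval -0.59 to 0.31, adjusted p = 0.713 from limma-trend). In the OSKA + 4OHT group *Mcl1* was the highest of the 3 pro-survival genes in every well, whereas without 4OHT *Bcl2l1* and *Mcl1* were at like levels.

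The make-up of the summed pro-survival TPM differed accordingly. *Bcl2l1* made up 45.7%, 51.4% and 50.6% of this sum in OSKA − 4OHT replicates 1 to 3 and 27.2%, 34.3% and 41.2% in OSKA + 4OHT replicates 1 to 3. *Mcl1* made up 46.6 ± 2.9% without and 60.8 ± 6.49% with 4OHT (SD, n = 3 each), and *Bcl2* 4.16 ± 0.268% and 4.93 ± 0.730%. The sum itself was 204, 225 and 197 TPM without and 146, 150.5 and 186 TPM with 4OHT. These shares restate the levels above and were not tested.

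*Bak1* encodes BAK, the effector that sits in the outer mitochondrial membrane of healthy cells (chromosome 17, 27019810 to 27029009). It had 43.6, 51.0 and 43.1 TPM in the OSKA − 4OHT wells (replicates 1 to 3) and 84.0, 87.2 and 85.4 TPM in the OSKA + 4OHT wells. The wells were close to each other in both groups, and the groups were far apart. The mean rose 1.86-fold, from 45.9 ± 4.43 TPM without to 85.5 ± 1.62 TPM with 4OHT (SD, n = 3 each). The log2 fold change was 0.89 (standard error 0.13, 95% interval 0.57 to 1.22, adjusted p = 0.0184 from limma-trend), and 0.75 once libraries were rescaled by trimmed means (TMM). Leaving out each well in turn kept the call 3 times and lost it 3 times: without OSKA − 4OHT replicate 1, OSKA + 4OHT replicate 1 or OSKA + 4OHT replicate 2 the adjusted p was 0.0503, 0.0629 and 0.0629, with log2 fold changes of 0.86, 0.91 and 0.88. Of its 31-base words, none occurred in a transcript of another annotated gene read on its own strand. *Ggnbp1* overlaps *Bak1* on the opposite strand, which this search does not cover, and its entries were at 1.47 TPM or less in every library.

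*Bax* encodes the second effector, which is cytosolic until it is activated (chromosome 7, 45461697 to 45466898). It was the most abundant member in the mean of both groups, and among the OSKA − 4OHT wells it was the member that differed most. It had 314, 152 and 87.4 TPM without and 194, 151 and 103 TPM with 4OHT, a 3.60-fold range among the OSKA − 4OHT wells. The groups overlapped fully, and OSKA − 4OHT replicates 1 and 3 held the highest and the lowest of the 6 values. The log2 fold change was -0.15 (standard error 0.48, 95% interval -1.31 to 1.01, adjusted p = 0.889 from limma-trend). This interval, from the fit without a block, leaves room for a change of 1 on the log2 scale in either direction. Replicate 1 was the highest and replicate 3 the lowest in both groups, and with a replicate block the interval was -0.76 to 0.46. Whether the replicate numbers stand for a shared origin is not known. The sign turned without OSKA − 4OHT replicate 1, to a log2 fold change of 0.33 (95% interval -0.66 to 1.32), and without OSKA + 4OHT replicate 3, to 0.091. *Bax* has 6 annotated transcripts of 222 to 1100 bases, and 11.1% of its 31-base words also occur in other genes, most of them in *Gm45808*, which lies on the same strand and was listed at 0 in 5 of the 6 libraries.

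Because *Bcl2l1* and *Bak1* differed in opposite directions, their ratio separated the groups. *Bcl2l1* TPM was 2.14, 2.26 and 2.32 times *Bak1* TPM in the OSKA − 4OHT wells (replicates 1 to 3) and 0.471, 0.593 and 0.895 times in OSKA + 4OHT replicates 1 to 3. The ratio was above 1 in every OSKA − 4OHT well and below 1 in every OSKA + 4OHT well. BCL-XL is a known binding partner of BAK, but a ratio of RNA levels does not give that of the proteins. A value of 1 in TPM therefore marks no balance between them. The ratio of *Mcl1* to *Bcl2l1* did not overlap between the groups either, at 0.871 to 1.09 without and 1.33 to 2.49 with 4OHT. The ratio of *Bcl2l1* to *Bax* did overlap, at 0.296 to 1.14 without and 0.204 to 0.742 with 4OHT. The ratios were formed from the members after their levels were seen and carry no test.

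**Figure D2:**
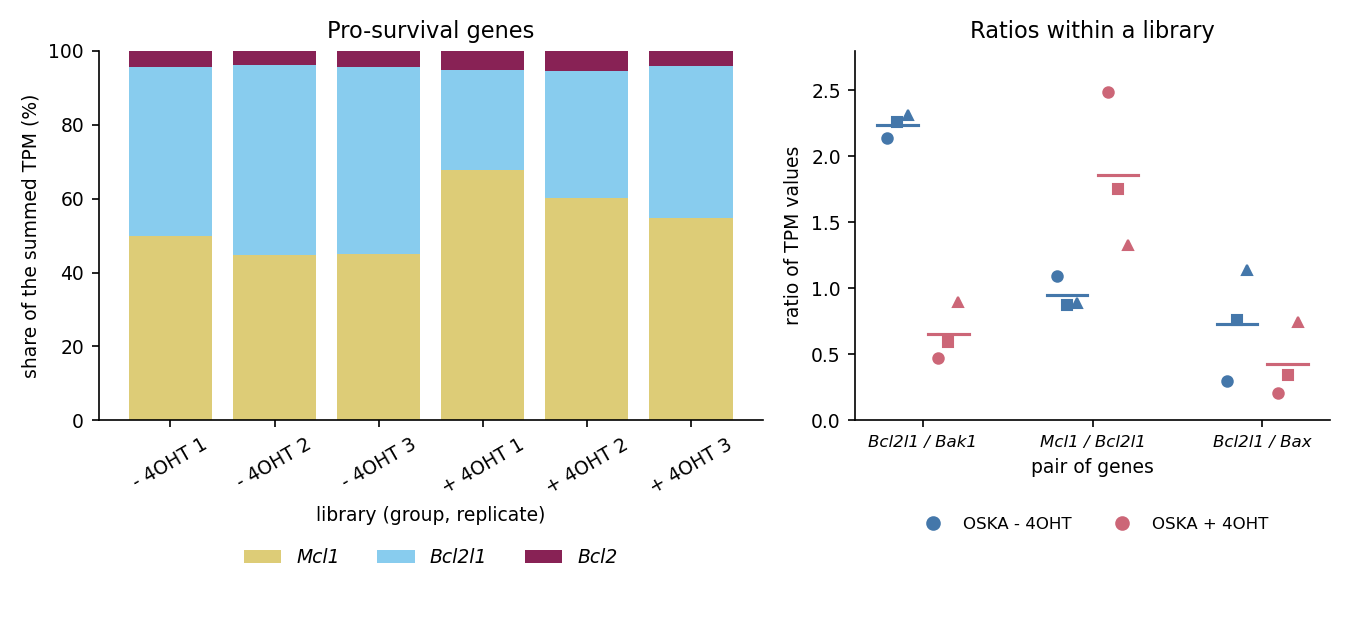
Left, share (%) of *Mcl1*, *Bcl2l1* and *Bcl2* in their summed TPM in each library. Right, ratio of TPM values of 3 gene pairs in each library, with the groups in colour, the replicates as circles (1), squares (2) and triangles (3), and the group means as lines (n = 3). *Bcl2l1* over *Bak1* was 2.14 to 2.32 without and 0.471 to 0.895 with 4OHT.

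None of the 5 BH3-only genes was called, and for each of them the groups overlapped. *Bcl2l11* encodes BIM, which can bind every pro-survival protein and activate BAX and BAK (chromosome 2, 128126038 to 128162547). It was the least abundant member, at 4.38, 3.74 and 3.46 TPM without and 4.72, 3.73 and 4.98 TPM with 4OHT. Its log2 fold change was 0.19 (standard error 0.27, 95% interval -0.45 to 0.83, adjusted p = 0.723 from limma-trend), against 0.062 with TMM and 0.0065 with quantile normalization.

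*Bbc3* encodes PUMA, a BH3-only protein induced by p53 and by FOXO factors (chromosome 7, 16308393 to 16318205). It had 5.73, 9.67 and 5.06 TPM without and 4.98, 7.58 and 2.64 TPM with 4OHT. Replicate 2 was the highest in both groups, and the lowest value was that of OSKA + 4OHT replicate 3. The log2 fold change was -0.45 (standard error 0.43, 95% interval -1.49 to 0.59, adjusted p = 0.596 from limma-trend). It was -0.086 without OSKA + 4OHT replicate 3 and -0.77 without OSKA + 4OHT replicate 2.

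*Pmaip1* encodes NOXA, which binds MCL1 with preference. It had 41.2, 24.9 and 19.5 TPM without and 29.4, 43.6 and 22.2 TPM with 4OHT, with 1 high well in each group. The log2 fold change was 0.17 (standard error 0.36, 95% interval -0.70 to 1.03, adjusted p = 0.827 from limma-trend), and it was -0.067 without OSKA − 4OHT replicate 3 and -0.088 without OSKA + 4OHT replicate 2.

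*Bad*, the BH3-only gene whose protein AKT phosphorylates (chromosome 19, 6941861 to 6951899), had 25.7, 36.5 and 18.1 TPM without and 26.5, 56.6 and 43.3 TPM with 4OHT. Of the OSKA + 4OHT wells, replicates 2 and 3 were above all OSKA − 4OHT wells and replicate 1 was not. *Bad* differed by a log2 fold change of 0.63 (standard error 0.36, 95% interval -0.24 to 1.51, adjusted p = 0.378 from limma-trend). This was 0.93 (95% interval 0.014 to 1.85, adjusted p = 0.282) without OSKA + 4OHT replicate 1 and 0.39 without OSKA − 4OHT replicate 3. The phosphorylation of BAD is not measured by RNA. *Gpr137*, on the opposite strand, overlaps *Bad* and had 11.3 to 18.6 TPM, and whether strand was used in the quantification is not given in the sources used here.

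*Bid* encodes a BH3-only protein that caspase-8 cleaves to carry death receptor signals to mitochondria (chromosome 6, 120891930 to 120916853). It had 24.8, 29.4 and 16.3 TPM without and 38.0, 28.9 and 19.5 TPM with 4OHT. *Bid* differed by a log2 fold change of 0.28 (standard error 0.32, 95% interval -0.51 to 1.06, adjusted p = 0.665 from limma-trend). This was 0.038 without OSKA − 4OHT replicate 3, 0.53 without OSKA + 4OHT replicate 3 and 0.14 with TMM. *Bcl2l13*, another gene of the family, overlaps it on the opposite strand and ranged from 9.20 to 41.0 TPM.

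The summed TPM of the BH3-only members was 102, 104 and 62.5 without and 104, 140.4 and 92.5 with 4OHT, and that of the effectors 358, 203 and 130.5 without and 278, 238 and 188 with 4OHT. Pro-survival TPM was 2.00, 2.16 and 3.16 times BH3-only TPM in the OSKA − 4OHT wells and 1.41, 1.07 and 2.00 times in the OSKA + 4OHT wells. The groups overlapped at OSKA + 4OHT replicate 3 and OSKA − 4OHT replicate 1, which were both at 2.00 after rounding. The ratio of pro-survival to effector TPM overlapped, at 0.569 to 1.51 without and 0.523 to 0.985 with 4OHT. *Bax* made up 87.8%, 74.8% and 67.0% of the effector sum in OSKA − 4OHT replicates 1 to 3 and 69.8%, 63.4% and 54.7% in OSKA + 4OHT replicates 1 to 3.

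In the order of group means, *Bax*, *Bcl2l1* and *Mcl1* led in the OSKA − 4OHT group, and each overlapped the next in its range over wells. *Bak1* followed, apart from both neighbours. *Pmaip1*, *Bad* and *Bid* formed a middle group with overlapping ranges, and *Bcl2*, *Bbc3* and *Bcl2l11* were the lowest, the first 2 overlapping and *Bcl2l11* apart below them. In the OSKA + 4OHT group the order was *Bax*, *Mcl1*, *Bak1* and *Bcl2l1*, each apart from the next in its range, so that *Bak1* lay above *Bcl2l1*, which overlapped *Bad* below it. The lower 6 were *Bad*, *Pmaip1*, *Bid*, *Bcl2*, *Bbc3* and *Bcl2l11*, of which the first 3 overlapped in sequence, as did the last 3.

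Of 15 further genes of the family, 9 were tested, and 2 of these were called, both higher, beside 3.52% of all genes tested. *Bnip3*, which encodes a mitochondrial protein of hypoxia and mitophagy with a BH3-like stretch, had 36.8, 37.7 and 42.9 TPM without and 152, 204 and 146 TPM with 4OHT. All OSKA + 4OHT wells were far above all OSKA − 4OHT wells, and the log2 fold change was 2.07 (95% interval 1.65 to 2.49, adjusted p = 0.00376 from limma-trend). Of its 31-base words, 20.3% occur in other genes, most of them in *Gm16439* and *Gm6532*, which were listed at 0 in all libraries. *Bcl2l12* had 6.94, 5.93 and 5.93 TPM without and 18.5, 14.8 and 18.7 TPM with 4OHT (log2 fold change 1.39, limma-trend adjusted p = 0.0162). With 1 well left out its adjusted p was from 0.0492, without OSKA − 4OHT replicate 1, to 0.0814, without OSKA + 4OHT replicate 1, and above 0.05 in 5 of the 6 fits.

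The other 7 tested genes of the family were not called. Among them, the pro-survival gene *Bcl2l2* (BCL-W) had 14.5 to 22.3 TPM without and 14.9 to 19.1 TPM with 4OHT (log2 fold change -0.18, limma-trend adjusted p = 0.698), and the effector-like gene *Bok* 6.91 to 21.5 and 6.07 to 18.9 TPM. The BH3-only gene *Bmf* had 0.614, 0.576 and 1.68 TPM without and 3.55, 5.34 and 1.88 TPM with 4OHT, without overlap, and its adjusted p was 0.185 from limma-trend at a log2 fold change of 1.48. *Bcl2l10*, *Hrk* and *Bcl2a1a* were listed at 0 in all 6 libraries. Between 79.6% and 89.1% of the 31-base words of *Bcl2a1a*, *Bcl2a1b* and *Bcl2a1d* occur in other genes, mainly in each other, so their values are uncertain. *Bcl2l2*, *Bok* and *Bmf* were named for their roles after their values were seen.

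**Figure D3:**
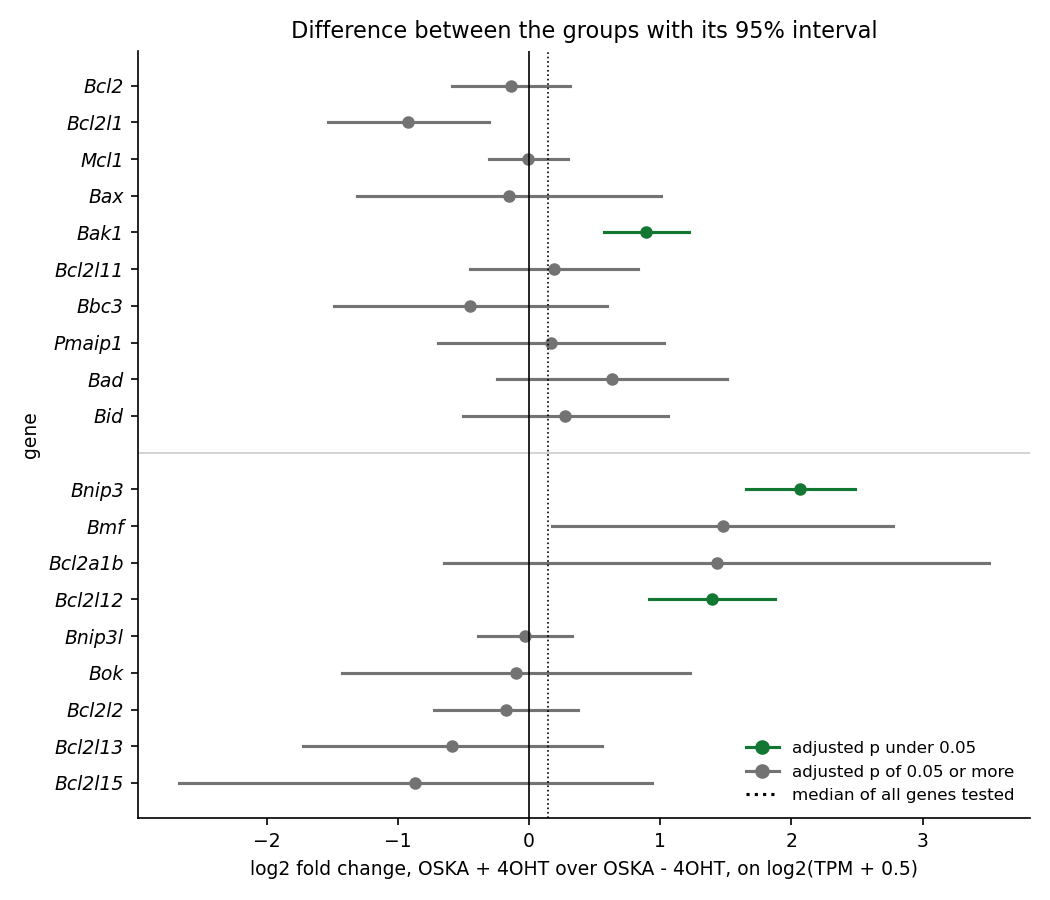
Log2 fold change (OSKA + 4OHT over OSKA − 4OHT, on log2(TPM + 0.5)) with its 95% interval from limma-trend for the 10 members (above the line) and the 9 tested further genes of the family (below it). Green marks an adjusted p-value under 0.05, which *Bak1*, *Bnip3* and *Bcl2l12* reached, and the dotted line the median of all genes tested, 0.14.

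Genes that act beside or after the family were taken from short lists. None of the 4 outer membrane partners (*Vdac1*, *Vdac2*, *Vdac3* and *Mtch2*, the last a receptor for BID) was called. The groups did not overlap for 3 of them, all higher in the OSKA + 4OHT group, as was the case for 18.1% of all genes tested. *Vdac1*, which encodes a channel of the outer membrane, had the largest difference, 437 ± 30.3 against 609.8 ± 49.0 TPM (SD, n = 3 each), at a log2 fold change of 0.48 (limma-trend, adjusted p = 0.0598). None of the 7 genes for 14-3-3 proteins, which hold phosphorylated BAD, was called, and their log2 fold changes lay between -0.11 (*Ywhab*) and 0.50 (*Ywhag*). For 3 of these 7 the groups did not overlap, all higher in the OSKA + 4OHT group, beside the same 18.1% of all genes tested. None of 13 genes of the apoptosome and the caspases was called either. For 3 of the 13 the groups did not overlap, again all higher with 4OHT, beside 18.1% of all genes tested. In this list *Casp9*, the initiator caspase of the apoptosome, had the largest negative difference (log2 fold change -0.50, 95% interval -1.68 to 0.69).

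Of the 5 inhibitors of apoptosis, 1 was called, *Birc5*, as higher, beside 3.52% of all genes tested. It encodes survivin, a protein of the mitotic spindle as well as an inhibitor of cell death, and had 41.0, 40.8 and 35.3 TPM without and 71.4, 58.4 and 73.5 TPM with 4OHT (log2 fold change 0.78, limma-trend adjusted p = 0.0439). With 1 well left out its adjusted p was from 0.0602 to 0.12, and without any filter on low genes 0.0522. Of 10 proliferation genes, 4 were called, all higher, beside 3.52% of all genes tested. The summed level of all 10, called or not, was 498 to 597 TPM without and 707 to 983 TPM with 4OHT. The part of proliferation in the level of *Birc5* was not tested.

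Of 12 tested genes of the death receptor and necroptosis arms, 1 was called higher and 1 lower. Over all genes tested these shares were 3.52% and 1.97%. *Zbp1*, an interferon-induced sensor of nucleic acids that can start necroptosis, had 23.2, 25.6 and 28.2 TPM without and 119, 149 and 155 TPM with 4OHT (log2 fold change 2.43, limma-trend adjusted p = 0.00342). *Cflar* encodes c-FLIP, the inhibitor of caspase-8 upstream of BID, and fell from 74.1, 112 and 75.1 TPM to 44.0, 41.4 and 30.4 TPM (log2 fold change -1.15, 95% interval -1.72 to -0.59, adjusted p = 0.0448 from limma-trend). The call of *Cflar* was lost in each of the 6 fits that left out 1 well, with adjusted p-values from 0.0920 to 0.135, although all its values stayed on the same side. *Casp8* itself, named for this role after its values were seen, had 20.7 to 24.3 TPM without and 23.9 to 25.1 TPM with 4OHT (log2 fold change 0.14, limma-trend adjusted p = 0.630).

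Among 12 transcription factors and regulators that are known to act on members, *Myc* was the one called, as lower, beside 1.97% of all genes tested. It had 41.2, 36.7 and 41.5 TPM without and 17.8, 19.3 and 18.4 TPM with 4OHT (log2 fold change -1.08, limma-trend adjusted p = 0.0144), and without OSKA + 4OHT replicate 1 the adjusted p was 0.0569. The FOXO genes *Foxo1*, *Foxo3* and *Foxo4* had log2 fold changes of 0.24, -0.29 and -0.17, none of them called, which says nothing of where their proteins were. Of the genes that control the turnover of the MCL1 protein, 3 were tested and none was called: *Fbxw7* had a log2 fold change of 1.34 (95% interval -0.57 to 3.26), *Huwe1* one of 0.54 and *Usp9x* one of -0.081. The value of *Fbxw7*, which encodes a subunit of a ubiquitin ligase that marks MCL1 for degradation, was carried by 1 well, since it had 15.2, 16.9 and 16.9 TPM without and 24.8, 165 and 17.9 TPM with 4OHT. *Huwe1* and the FOXO genes were named for their roles after their values were seen.

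**Figure D4:**
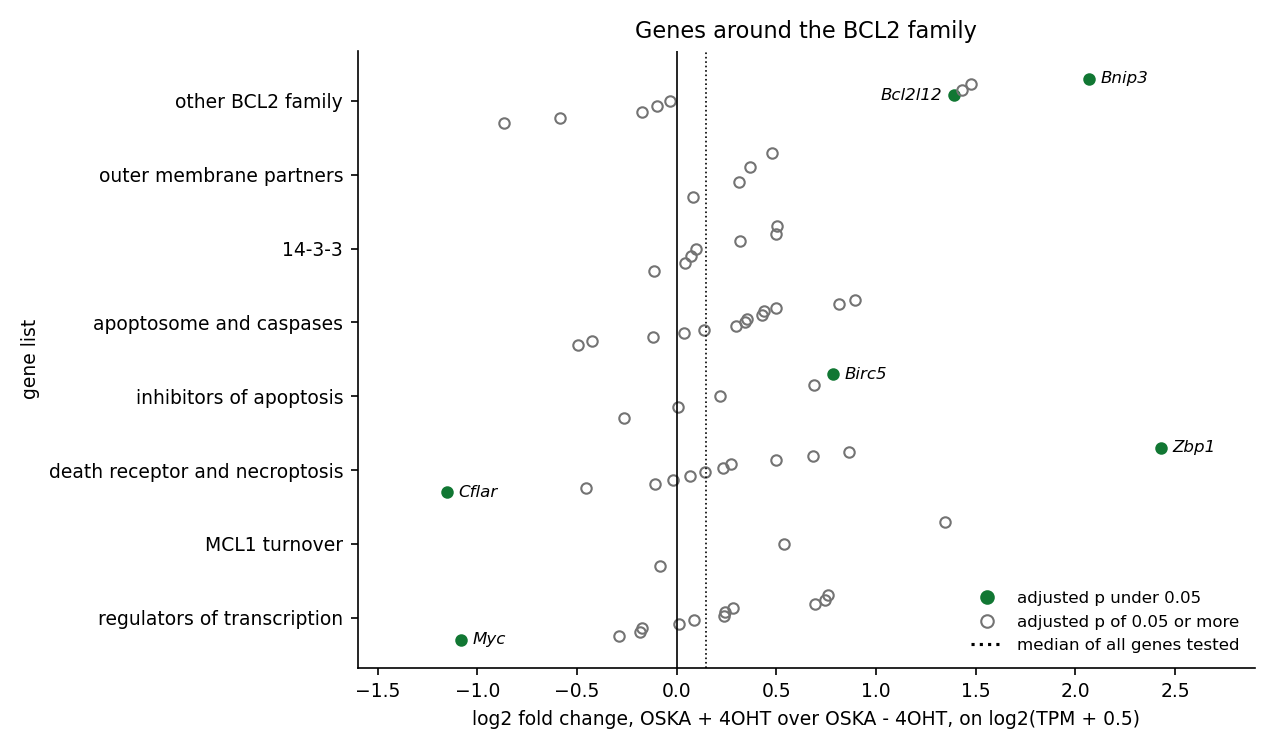
Log2 fold change of each tested gene in 8 lists around the members (horizontal axis, on log2(TPM + 0.5); the vertical position within a list only separates the points). Filled points have an adjusted p-value under 0.05 from limma-trend: *Bnip3*, *Bcl2l12*, *Birc5* and *Zbp1* were higher and *Cflar* and *Myc* lower in the OSKA + 4OHT group.

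Several marker lists moved with the same contrast as *Bak1* and *Bcl2l1*. Over all genes tested, 3.52% were called higher and 1.97% lower, and the sums below cover every gene of a list, called or not. Of 10 interferon genes, 9 were called, all higher, and their summed level was 123 to 178 TPM without and 1150.0 to 1579 TPM with 4OHT. Of 10 pluripotency markers, 8 were tested and 4 called, all higher, with sums of 7.45 to 16.8 and 64.7 to 72.9 TPM, and *Dppa5a*, *Utf1*, *Dppa4* and *Lin28a* were listed at 0 in every OSKA − 4OHT well. Of 10 epithelial markers, 3 were called, all higher (57.3 to 158 and 275 to 301 TPM). Of 10 fibroblast markers, 2 were called higher and 2 lower, and all 10 were present in every well (6532 to 8415 and 5027 to 6429 TPM), as the label of the cells has it. Of 10 macrophage markers, 1 was called, as lower (225 to 249 and 130.0 to 161 TPM), none was at 0 in any library, and the leukocyte marker *Ptprc* was at 0.435 to 1.67 TPM. Of 6 endothelial markers, 2 were tested and none called (21.4 to 29.9 and 28.1 to 38.2 TPM). The part of these cell types and states in the levels of *Bak1* and *Bcl2l1* was not tested, and in RNA from whole wells fewer cells of a type and less RNA per cell cannot be told apart.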

How the data were processed

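RNA from 3 wells per group was sequenced by the authors as stranded polyA libraries with single-end reads, which they trimmed with Trim Galore and quantified with Salmon against the mouse transcriptome. Versions and the transcriptome release are not given in the sources used here. As deposited, each gene has a TPM value in every well, and a well adds up to 1000000. The same table holds the authors' own comparison (fold change, average level, F statistic and p-value), which was not used. Genes were matched by Ensembl identifier to symbols and positions of GENCODE M21 on GRCm38, which need not be the authors' release. A symbol with 2 identifiers (*Ddit3*) was taken by its RefSeq position.

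The members and lists were chosen with earlier results of these data known. Values of log2(TPM + 0.5) were tested with limma-trend (limma 3.58.1, R 4.3.3; 2-sided, Benjamini-Hochberg adjustment over all genes tested, no block) for genes whose mean reached 1 TPM. A count test was not used because TPM keeps no depth. Named are all members, up to 4 genes with the smallest adjusted p-value in each direction of the lists around the family, or the largest rise and fall where none passed, and genes marked as chosen later. A gene that this rule names is not reported here. From marker lists, counts and sums are given. On simulated data of 15382 genes with 200 changed, 45% were recovered at a log2 change of 2 and 0% at 1, with 6 and 0 false calls. In the data 845 genes were called, among them *Bak1* at a log2 fold change of 0.89. The adjustment depends on how many genes change, so the simulated shares do not give the recovery in the data. A gene that was not called is not shown to be unchanged. Words of 31 bases shared between genes were counted in GENCODE transcripts, each read on its own strand (Python 3.11.15, pandas 2.3.3). Alternatives were other pseudocounts, filters, scalings and variance models, a replicate block and leaving out each well.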

Additional observations from a re-analysis of the deposited data

How the results depend on the processing

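The direction of *Bak1* (higher) and *Bcl2l1* (lower) was kept under all 16 alternatives, and *Bak1* was called in 12 of them. Its log2 fold change was from 0.85 to 0.97 with 1 well left out, with adjusted p-values from 0.0356 to 0.0629. *Bcl2l1* was called under none, with log2 fold changes from -1.17 to -0.70 with 1 well left out. Under the same 6 fits *Bax* ranged from -0.59 to 0.33, *Mcl1* from -0.065 to 0.043 and *Pmaip1* from -0.088 to 0.46, so that their signs are not settled. The count of genes called higher was between 137 and 357, and that of genes called lower between 68 and 148, with 1 well left out, the smallest counts without OSKA + 4OHT replicate 1. With libraries rescaled by trimmed means (TMM) 501 genes were called lower, and 47.4% of the calls were higher, against 64.1% without it. Wells with the same replicate number had deviations from the group means that correlated by 0.0235, 0.0341 and 0.0837 across genes. Wells with different numbers correlated by -0.062 to 0.0327. Each OSKA − 4OHT well correlated best with the OSKA + 4OHT well of its number, but OSKA + 4OHT replicate 1 did so with OSKA − 4OHT replicate 2 (0.0327). All these values are small, and whether the numbers stand for a shared origin is not known. With the replicate block 31 genes were called higher and 16 lower, and *Bak1* had the same log2 fold change of 0.89 with an adjusted p of 0.0986. *Zbp1* was called under all 16 alternatives and *Bnip3* under 15, all but the replicate block (0.0555). *Bcl2l12* was called under 10, *Birc5* under 5, *Cflar* under 7 and *Myc* under 14. Adding the further genes of each role moved the log2 difference between the groups from -0.72 to -0.73 for pro-survival over BH3-only TPM, from -0.52 to -0.47 for pro-survival over effector TPM and from 0.21 to 0.26 for BH3-only over effector TPM. With 1 well left out these differences were from -0.96 to -0.51, from -0.91 to -0.21 and from -0.061 to 0.38, the last with its sign turned without OSKA − 4OHT replicate 1. The depth behind low genes such as *Bcl2l11* and *Bmf* is unknown.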

Other observations

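Single wells stood apart for some genes. *Bcl2l15*, a little-described gene of the family, had 16.3 TPM in OSKA − 4OHT replicate 3 and between 1.71 and 5.87 TPM in the other 5. A second identifier annotated as *Ddit3* was listed at 105 TPM in OSKA − 4OHT replicate 2, at 257 TPM in OSKA + 4OHT replicate 3 and at 0 in the other 4 libraries, whereas the identifier used here was between 23.1 and 36.5 TPM in all of them. These genes were chosen after their values were seen.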
